A study of Mus musculus with 10 samples.

Results

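The comparison described here sets B16OVA melanoma lines that grew out in OVA-immunized wild-type mice (IMM 1, 2 and 8) against lines from immunized hosts that lacked the cytokine interferon-gamma, written IFN-γ (GKO-IMM 1, 2 and 3). These are 6 of the 10 arrays of the series, chosen by group label and not by any measured value. B16OVA is a C57BL/6 melanoma line made to express ovalbumin (OVA), a protein used as a model tumour antigen. All lines descend from that parent and were measured as established cell lines on 1 Affymetrix mouse gene array each, and both groups came from immunized hosts, so the labelled difference is host IFN-γ. The other arrays are 3 lines from naive wild-type mice (NIMM 1, 3 and 4) and the parent, whose levels are given below without a test against them. The submitters' design text says that IMM lines grew progressively when put back into OVA-immunized mice, whereas NIMM and GKO-IMM lines did not. The tumour cells themselves were not altered in IFN-γ: the deficiency lay in the host that each line had left. The labels do not say whether lines of a group came from separate animals, so p-values measure the spread between these lines, and with 3 lines a side the number of arrays limits the precision.

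IFN-γ is a cytokine that T cells and NK cells release. It binds the IFNGR1 and IFNGR2 receptor on tumour cells and acts through JAK1 and JAK2 to raise antigen presentation genes and chemokines. Another pathway matters for what follows: in the integrated stress response, shortage of amino acids or misfolded protein leads to translation of the transcription factor ATF4, which raises genes for amino acid synthesis, import and tRNA charging. A further factor, NRF2, raises genes for glutathione synthesis and the disposal of oxidants.

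Of 23360 genes, 16352 were bright enough to test. At a Benjamini-Hochberg adjusted p under 0.05 in limma, a linear model fitted across all genes, 975 genes (5.96%) differed: 419 (2.56%) were higher in IMM lines and 556 (3.4%) were lower. Differences are IMM minus GKO-IMM in log2 intensity, and SE is the model's standard error. Most were small, with a median of 0.35 among the higher and -0.39 among the lower genes, and 7 higher and 33 lower genes reached 1 log2 unit. The 3 IMM and 3 GKO-IMM values did not overlap for 974 of the 975, but they also did not overlap for 25.8% of all genes tested. Across all genes the median difference was 0.01.

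The lines were melanoma by their markers. Summed intensities of 8 melanocyte genes lay between 30300 and 33300 in IMM lines and between 30300 and 31200 in GKO-IMM lines. Lists of other cells were dim. The T and NK cell list summed over 12 genes to 313 to 325 in IMM and 310 to 317 in GKO-IMM lines. The myeloid list summed over 11 genes to 358 to 375 in IMM and 338 to 357 in GKO-IMM lines. Fibroblast sums were 389 to 396 and 363 to 380, and endothelial sums 173 to 176 and 169 to 172, in the same order. IMM sums of the myeloid, fibroblast and endothelial lists thus lay above the GKO-IMM sums. Those of the T and NK, B and keratinocyte lists overlapped. Of 25 genes tested from 6 lists of other cell types (T and NK, B, myeloid, endothelial, fibroblast, keratinocyte), 0 passed in limma and 4 had an unadjusted p under 0.05. In bulk RNA, fewer cells of a kind and less RNA per cell cannot be told apart.

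Lines within a group did not stand equally close. The SD of log2 differences between a pair of arrays was 0.118 to 0.136 within GKO-IMM, 0.142 to 0.184 within IMM and 0.193 to 0.222 between the groups. IMM 2 was the most distant IMM line, and without it 582 genes were higher and 652 lower. NIMM 4, which lay outside the comparison, took the GKO-IMM side of most differences: of the 556 lower genes its level was nearer the GKO-IMM mean in 506, whereas the mean of NIMM 1 and 3 was nearer the IMM mean in 446 (80.2%). For the 419 higher genes these numbers were 374 and 331. When all 9 tumour-derived lines shared 1 estimate of the spread, 191 genes (1.17%) still passed, and all of them were among the 975. When NIMM 4 alone was kept out of that fit, a choice made after seeing the data, 1206 passed and 956 of them were among the 975. The position of NIMM 4 is therefore given with the gene lists described below.

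Many of the genes furthest below GKO-IMM in the IMM lines were genes of the stress response and of amino acid supply. Chac1, which encodes an enzyme that breaks down glutathione and is a known ATF4 pathway target, measured 6.72, 6.46 and 6.91 in IMM 1, 2 and 8 and 8.83, 8.63 and 8.77 in GKO-IMM 1, 2 and 3. All IMM values lay below all GKO-IMM values, a difference of -2.05 (SE 0.11, adjusted p = 1.95e-05, limma) or 4.14-fold. Trib3, a pseudokinase that feeds back on ATF4, measured 6.78, 6.39 and 7.48 against 8.94, 8.84 and 8.88, a difference of -2.01 (SE 0.21, adjusted p = 0.000596, limma). Its groups did not overlap, and IMM 8 was the highest of the IMM lines. Atf5, a transcription factor of the same pathway, measured 6.12, 6.00 and 6.25 against 8.10, 7.89 and 8.10, a difference of -1.90 (SE 0.08, adjusted p = 7.79e-06, limma). In NIMM 1, 3 and 4 the same gene measured 6.11, 6.45 and 8.54, so that NIMM 4 stood with GKO-IMM and the other NIMM lines with IMM. Cyb5r2, a cytochrome b5 reductase gene in none of the lists, differed as much as Trib3, at 5.99, 5.29 and 6.00 against 7.94, 7.67 and 7.70 (-2.01, SE 0.17, adjusted p = 0.000196, limma). Adh7, an alcohol and retinol dehydrogenase gene also in none of them, measured 6.09, 7.07 and 6.00 against 8.31, 8.17 and 7.79 (-1.70, SE 0.24). Neither gene's groups overlapped.

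The promoters of Slc7a11, Chac1, Cyb5r2 and Trib3 are shown because these are 4 of the 5 genes furthest down, of which Atf5 held no match, and because their letters can be read against the element that ATF4 and C/EBP factors bind. Each runs 5′ to 3′ on the gene's strand, from RefSeq on build GRCm38.p6, 250 bases before to 50 bases after a start listed for the gene. For the minus-strand genes Slc7a11 and Cyb5r2 that start lies inside the gene's span, which ends at 50499087 and 107758202. Capitals mark matches to TGATGNAA on either strand.
Chac1 (chr2:119350992-119351291, plus strand): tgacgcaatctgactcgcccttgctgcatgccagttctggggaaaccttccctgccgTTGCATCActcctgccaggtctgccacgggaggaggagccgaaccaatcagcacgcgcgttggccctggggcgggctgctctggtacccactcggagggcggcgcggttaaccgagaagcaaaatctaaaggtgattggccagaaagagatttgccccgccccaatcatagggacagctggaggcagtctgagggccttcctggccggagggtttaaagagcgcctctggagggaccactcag
Trib3 (chr2:152344011-152344310, minus strand): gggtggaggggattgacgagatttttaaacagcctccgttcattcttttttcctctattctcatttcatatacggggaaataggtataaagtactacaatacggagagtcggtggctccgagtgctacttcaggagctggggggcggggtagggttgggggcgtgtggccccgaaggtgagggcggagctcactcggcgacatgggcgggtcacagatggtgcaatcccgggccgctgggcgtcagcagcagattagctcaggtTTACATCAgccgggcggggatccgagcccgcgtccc
Slc7a11 (chr3:50443564-50443863, minus strand): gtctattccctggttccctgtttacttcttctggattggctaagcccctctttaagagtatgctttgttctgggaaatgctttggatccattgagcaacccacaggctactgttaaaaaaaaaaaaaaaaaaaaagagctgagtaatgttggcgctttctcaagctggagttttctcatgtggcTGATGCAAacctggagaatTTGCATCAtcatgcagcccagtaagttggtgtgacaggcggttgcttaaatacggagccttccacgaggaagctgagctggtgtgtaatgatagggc
Cyb5r2 (chr7:107757983-107758282, minus strand): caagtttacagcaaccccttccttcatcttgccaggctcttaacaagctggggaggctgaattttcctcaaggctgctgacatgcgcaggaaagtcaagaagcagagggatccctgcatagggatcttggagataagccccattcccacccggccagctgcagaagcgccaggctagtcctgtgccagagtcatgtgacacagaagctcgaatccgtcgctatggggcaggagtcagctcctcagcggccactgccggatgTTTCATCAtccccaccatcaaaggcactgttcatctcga
Chac1, Trib3 and Cyb5r2 held 1 match each and Slc7a11 held 2, and the Atf5 window held 0. The matches of Trib3 and Cyb5r2 lie after the start used, at positions 15 and 12, and the others before it. A match was present in 4.06% of all 27025 promoters and in 2.46% of those of genes tested. Among genes with a promoter in the table, 33 of 444 lower genes (7.43%) and 4 of 327 higher genes (1.22%) held one, as did 7 of the 18 lower stress genes. A match is a run of letters and was not tested as a binding site.

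Across the list of unfolded protein and integrated stress response genes, 20 of 41 tested were lower in IMM lines, 0 were higher and 21 did not pass, with a median difference of -0.35 against 0.01 over all genes. The share called was 48.8%, against 5.96% over all genes. Transcription factors among the 20 were Atf4 (-0.94, SE 0.09), Ddit3 (-1.31, SE 0.13), Atf5, Cebpg, Atf3 and Cebpb. Enzymes of amino acid and folate metabolism were Asns, asparagine synthetase (-1.14, SE 0.09), Psph and Phgdh of serine synthesis, Cth of cysteine synthesis, and the mitochondrial Pck2 (-1.65, SE 0.12), Aldh1l2, Mthfd2 and Shmt2. Nupr1, a stress-induced chromatin protein, and Sesn2, which restrains mTORC1 when leucine is short, differed by -1.79 (SE 0.18) and -1.21 (SE 0.08). Of the 20 genes, 4 lie on chromosome 7, described below. As a deviation from each gene's mean over the 6 arrays, the list's median was -0.14, -0.29 and -0.13 in IMM and 0.20, 0.17 and 0.19 in GKO-IMM. It was -0.26 and -0.24 in NIMM 1 and 3, 0.57 in NIMM 4 and -0.43 in the parent. For all 20 genes NIMM 4 was nearer the GKO-IMM mean, and NIMM 1 and NIMM 3 were each nearer the IMM mean. In the fit over 9 lines 0 of the 20 passed, in that without NIMM 4 all 20 did, and without IMM 2 the count stayed 20.

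**Figure D1:**
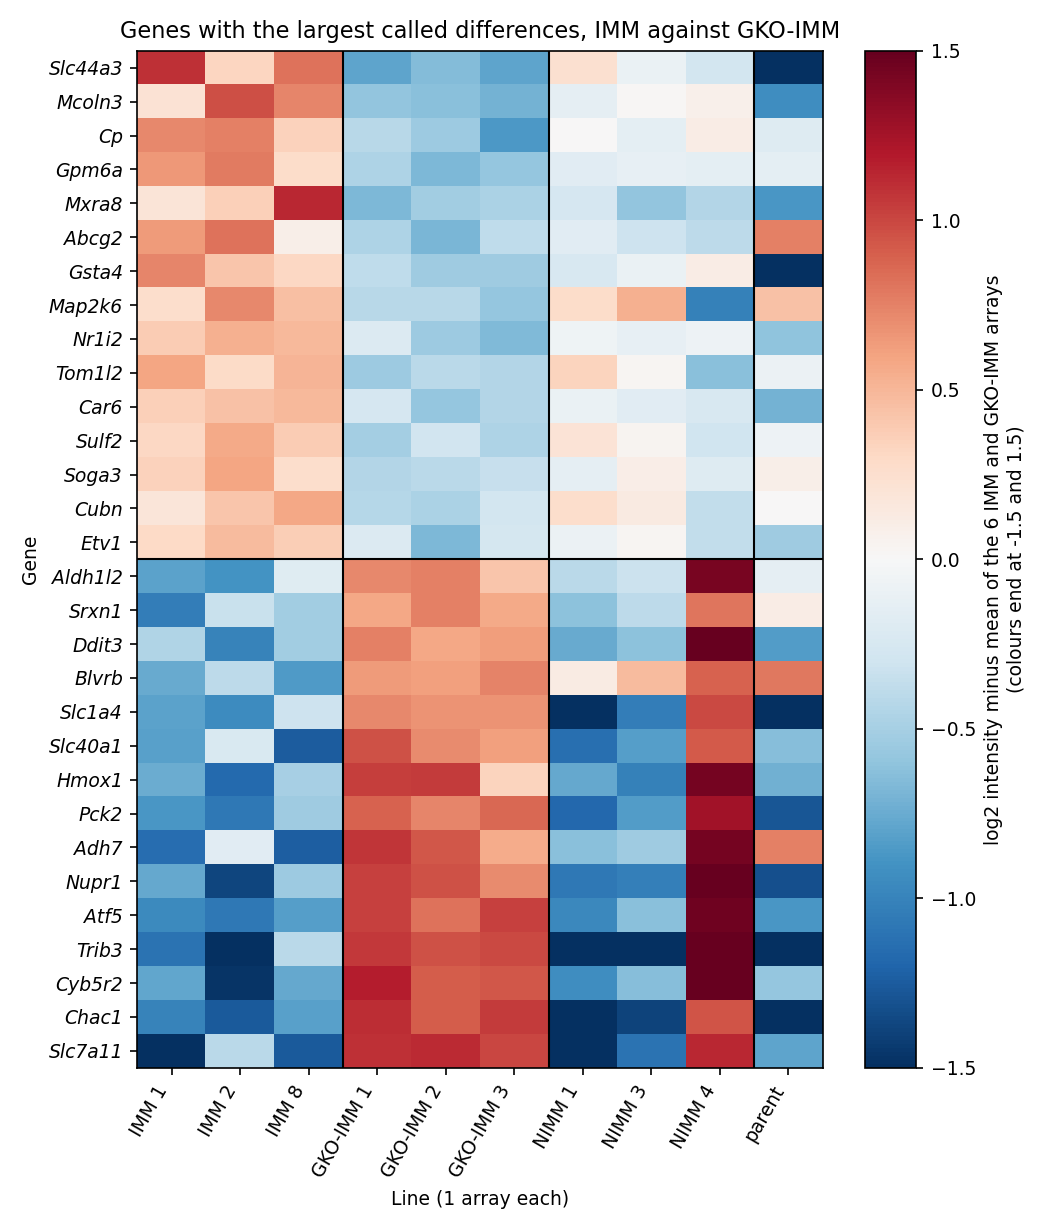
Log2 intensity of the 15 genes furthest in each direction (rows) in each line (columns), as the deviation from the mean of the 6 IMM and GKO-IMM arrays, with red above and blue below that mean. The lower block shows NIMM 4 coloured like the GKO-IMM lines in all 15 genes, with NIMM 1 and 3 coloured like IMM in most. In the upper block the NIMM lines are paler, since most lie between the groups.

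Genes that bring amino acids into the cell and load them onto tRNA followed the same side. Of 18 amino acid transporter genes tested 9 were lower and 0 higher, against 3.4% lower and 2.56% higher over all genes. Slc7a11, the cystine importer that supplies glutathione synthesis, measured 8.13, 9.28 and 8.43 in IMM lines and 10.78, 10.80 and 10.69 in GKO-IMM lines. It had the largest difference of all genes named, -2.14 (SE 0.22, adjusted p = 0.0006, limma) or 4.42-fold, and IMM 2 lay well above the other IMM lines though below every GKO-IMM line. Slc1a4 and Slc1a5, carriers of small neutral amino acids, differed by -1.38 (SE 0.13) and -1.01 (SE 0.10), and Slc7a5 and Slc3a2, which together form a leucine carrier, by -0.83 (SE 0.07) and -0.66 (SE 0.06). Slc1a5 lies on chromosome 7. Of 18 cytosolic tRNA synthetase genes tested 11 were lower and 0 higher (61.1% called, against 5.96% over all genes), with a median of -0.39. Among them Sars, for serine, differed by -0.67 (SE 0.09), Gars, for glycine, by -0.57 (SE 0.07) and Eprs, for glutamate and proline, by -0.47 (SE 0.06). The synthetase list's median by array was -0.24, -0.13 and -0.14 in IMM, 0.20, 0.17 and 0.18 in GKO-IMM, -0.29 and -0.19 in NIMM 1 and 3, and 0.28 in NIMM 4. NIMM 4 was nearer GKO-IMM for all 9 lower transporter genes and 10 of the 11 lower synthetase genes. In the fit over 9 lines 1 transporter gene and 0 synthetase genes passed.

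Antioxidant genes formed the third group on the lower side, with 16 of 31 glutathione and NRF2 genes lower and 1 higher. The share called was 54.8%, against 5.96% over all genes. Hmox1, heme oxygenase 1, measured 8.95, 8.53 and 9.20 in IMM lines and 10.74, 10.75 and 10.03 in GKO-IMM lines. The groups did not overlap and differed by -1.61 (SE 0.20, adjusted p = 0.00145, limma) or 3.06-fold. Gclm, the modifier subunit of the enzyme that starts glutathione synthesis, differed by -1.26 (SE 0.12), Srxn1, sulfiredoxin, by -1.27 (SE 0.15) and Nqo1, a quinone reductase, by -0.92 (SE 0.10). Slc7a11, Chac1, Hmox1 and Me1, malic enzyme (-0.47, SE 0.08), also stand in other lists here. The single higher member was Gsta4, a glutathione transferase for lipid peroxidation products, at 9.34, 9.02 and 8.91 against 8.22, 8.07 and 8.07, a difference of 0.97 (SE 0.10, adjusted p = 0.000682, limma). NIMM 4 was nearer GKO-IMM for 16 of these 17 genes, and in the fit over 9 lines Gsta4 was the 1 gene of the list that passed.

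Heme and iron genes moved both ways. Of 21 tested, 5 were lower and 2 higher (33.3% called, against 5.96% over all genes). NIMM 4 was nearer GKO-IMM for 6 of these 7. Besides Hmox1 the lower ones included Blvrb, biliverdin reductase B (-1.34, SE 0.11), Slc40a1, the iron exporter ferroportin (-1.52, SE 0.20), and Slc48a1, a heme transporter (-0.63, SE 0.06). Cp, ceruloplasmin, a copper protein that oxidizes iron for export, was higher, as was Ncoa4, a ferritin receptor of autophagy, by 0.24. Cp measured 9.35, 9.39 and 8.97 in IMM lines and 8.21, 8.08 and 7.77 in GKO-IMM lines, a difference of 1.22 (SE 0.13, adjusted p = 0.000682, limma). NIMM 1, 3 and 4 lay between the groups at 8.64, 8.48 and 8.74. For Blvrb all 3 NIMM lines, at 8.01, 8.37 and 8.78, lay above the IMM lines.

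**Figure D2:**
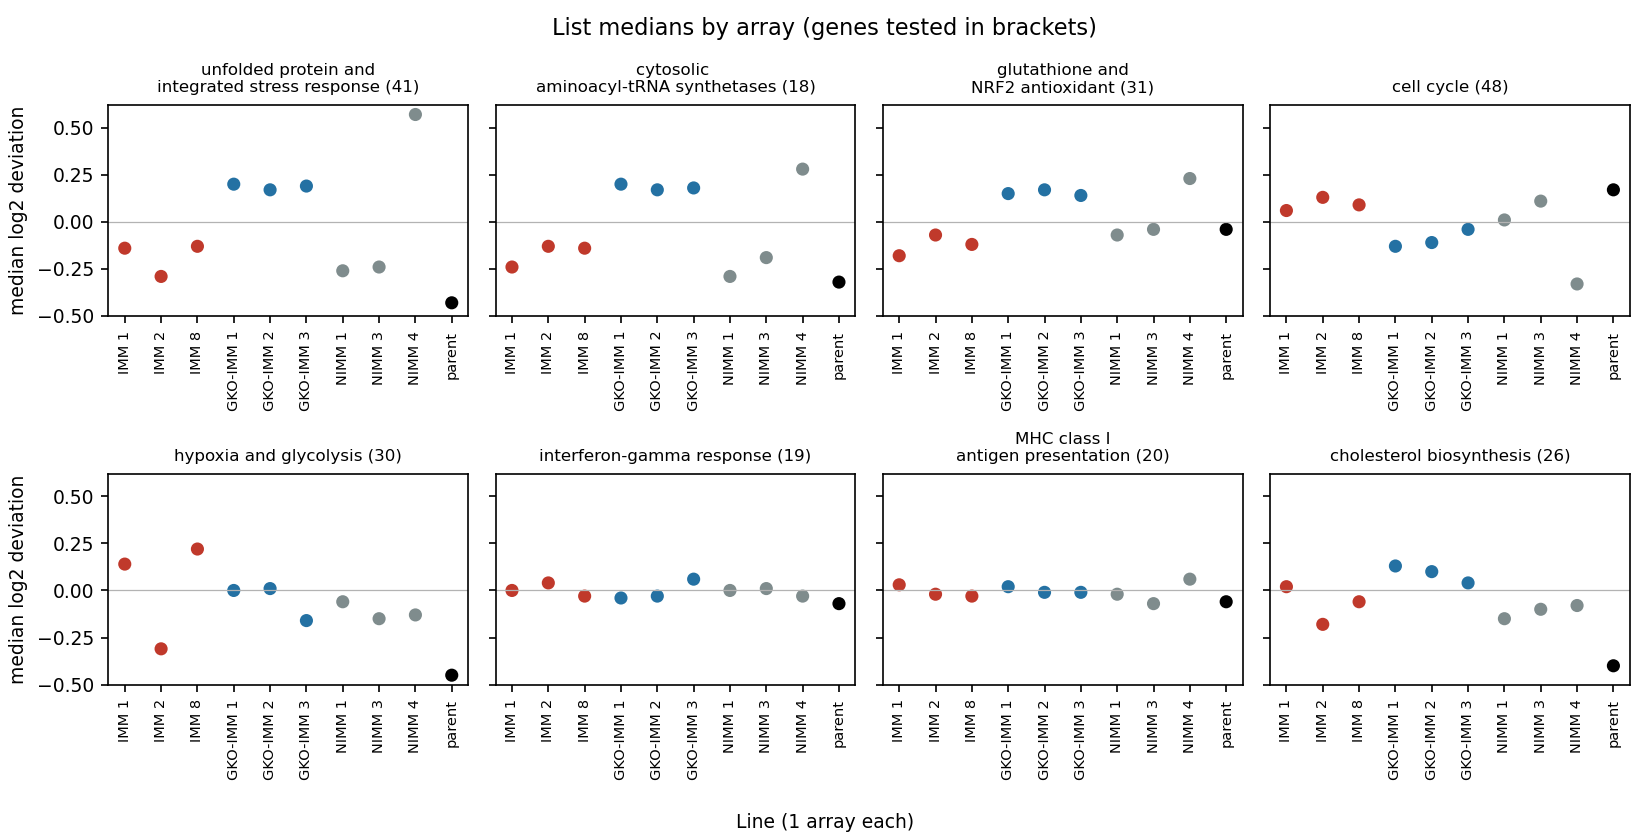
Median over the genes tested of each of 8 lists, as the log2 deviation from each gene's mean over the 6 IMM and GKO-IMM arrays, by line, with IMM red, GKO-IMM blue, NIMM grey and the parent black. In the stress, tRNA synthetase and antioxidant lists the GKO-IMM lines and NIMM 4 lie above the IMM lines. IMM 2 lies at -0.31 in the hypoxia list, and the IFN-γ response list stays within -0.07 to 0.06.

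The genes furthest up in IMM lines included membrane transporters, signalling proteins and matrix proteins. Slc44a3, a member of the choline transporter-like family, measured 8.36, 7.59 and 8.08 in IMM lines and 6.47, 6.62 and 6.47 in GKO-IMM lines. It differed by 1.49 (SE 0.15, adjusted p = 0.000599, limma) or 2.81-fold, without overlap. In the choline and phosphatidylcholine list it was the 1 gene of 18 that passed (5.56%, against 5.96% over all genes). Mcoln3, a lysosomal and endosomal cation channel, measured 6.72, 7.47 and 7.23 against 5.91, 5.87 and 5.79, a difference of 1.28 (SE 0.15). Gpm6a, a neuronal membrane glycoprotein, measured 7.25, 7.38 and 6.87 against 6.14, 5.93 and 6.02, a difference of 1.14 (SE 0.12). NIMM 1, 3 and 4 lay between the groups for all 3 genes. The rest of the 15 genes furthest up were Mxra8, a surface protein of the matrix list, Car6, a secreted carbonic anhydrase, Sulf2, an extracellular heparan sulfatase, Cubn, an endocytic receptor, Map2k6, a kinase that activates p38, Etv1, an ETS transcription factor, Tom1l2, Soga3, and Cp, Abcg2, Nr1i2 and Gsta4, described with their groups.

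The naive-host lines stood differently among the genes furthest up and furthest down. Of the 15 genes furthest up, 14 also passed in the fit over 9 lines, whereas of the 15 furthest down only Blvrb did. Of the 15 furthest down 4 lie on chromosome 7, described below (Cyb5r2, Atf5, Nupr1 and Blvrb), and of the 15 furthest up 0 do. NIMM 4 was nearer GKO-IMM with NIMM 1 and 3 each nearer IMM for 14 of the 15 genes furthest down and for 4 of the 15 furthest up. Over all 975 genes that passed, this pattern held for 611, and for 76 of the 191 that also passed over 9 lines. Map2k6, the upper gene that did not pass over 9 lines, measured 7.34 and 7.60 in NIMM 1 and 3 and 6.05 in NIMM 4. The counts over the 30 chosen genes were not tested against those over all genes that passed.

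Drug efflux genes moved both ways. Abcg2, a pump of many drugs and of porphyrins, measured 6.06, 6.23 and 5.50 in IMM lines and 4.95, 4.73 and 5.03 in GKO-IMM lines, a difference of 1.03 (SE 0.16, adjusted p = 0.00497, limma). The parent, at 6.17, stood with IMM. Nr1i2, the xenobiotic receptor PXR, was higher by 0.94 (SE 0.11). The glutathione-conjugate pump Abcc2 differed by -0.85 (SE 0.07), and Abcc4 and Abcc1 by -0.48 and -0.45 (SE 0.07 each). In all, 2 of 13 genes tested were higher and 3 lower (38.5% called, against 5.96% over all genes). NIMM 4 was nearer GKO-IMM for all 5, but NIMM 1 and 3 were each nearer IMM for only 2.

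Of 48 cell cycle genes tested 13 were higher in IMM lines, 1 was lower and 34 did not pass, with a median difference of 0.20. The share called was 29.2%, against 5.96% over all genes. In the fit over 9 lines 0 were higher and 1 was lower. Bub1b of the spindle checkpoint differed by 0.43 (SE 0.06), Kif23 of cytokinesis by 0.36 (SE 0.07), Mcm7 of the replication helicase by 0.31 (SE 0.06) and Cdk1 by 0.31 (SE 0.06). Mki67 differed by 0.14 (SE 0.06) and did not pass (adjusted p = 0.234, limma). The lower gene was Rrm1, a ribonucleotide reductase subunit on chromosome 7, at 10.58, 10.54 and 10.42 against 11.03, 11.15 and 11.17, a difference of -0.60 (SE 0.07). The list's median was 0.06, 0.13 and 0.09 in IMM lines, -0.13, -0.11 and -0.04 in GKO-IMM lines and -0.33 in NIMM 4. Without IMM 2, 9 list genes were higher and 1 lower, the call of Kif23 was lost without GKO-IMM 3, and those of Mcm7 and Cdk1 were lost without GKO-IMM 1 or 2.

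**Figure D3:**
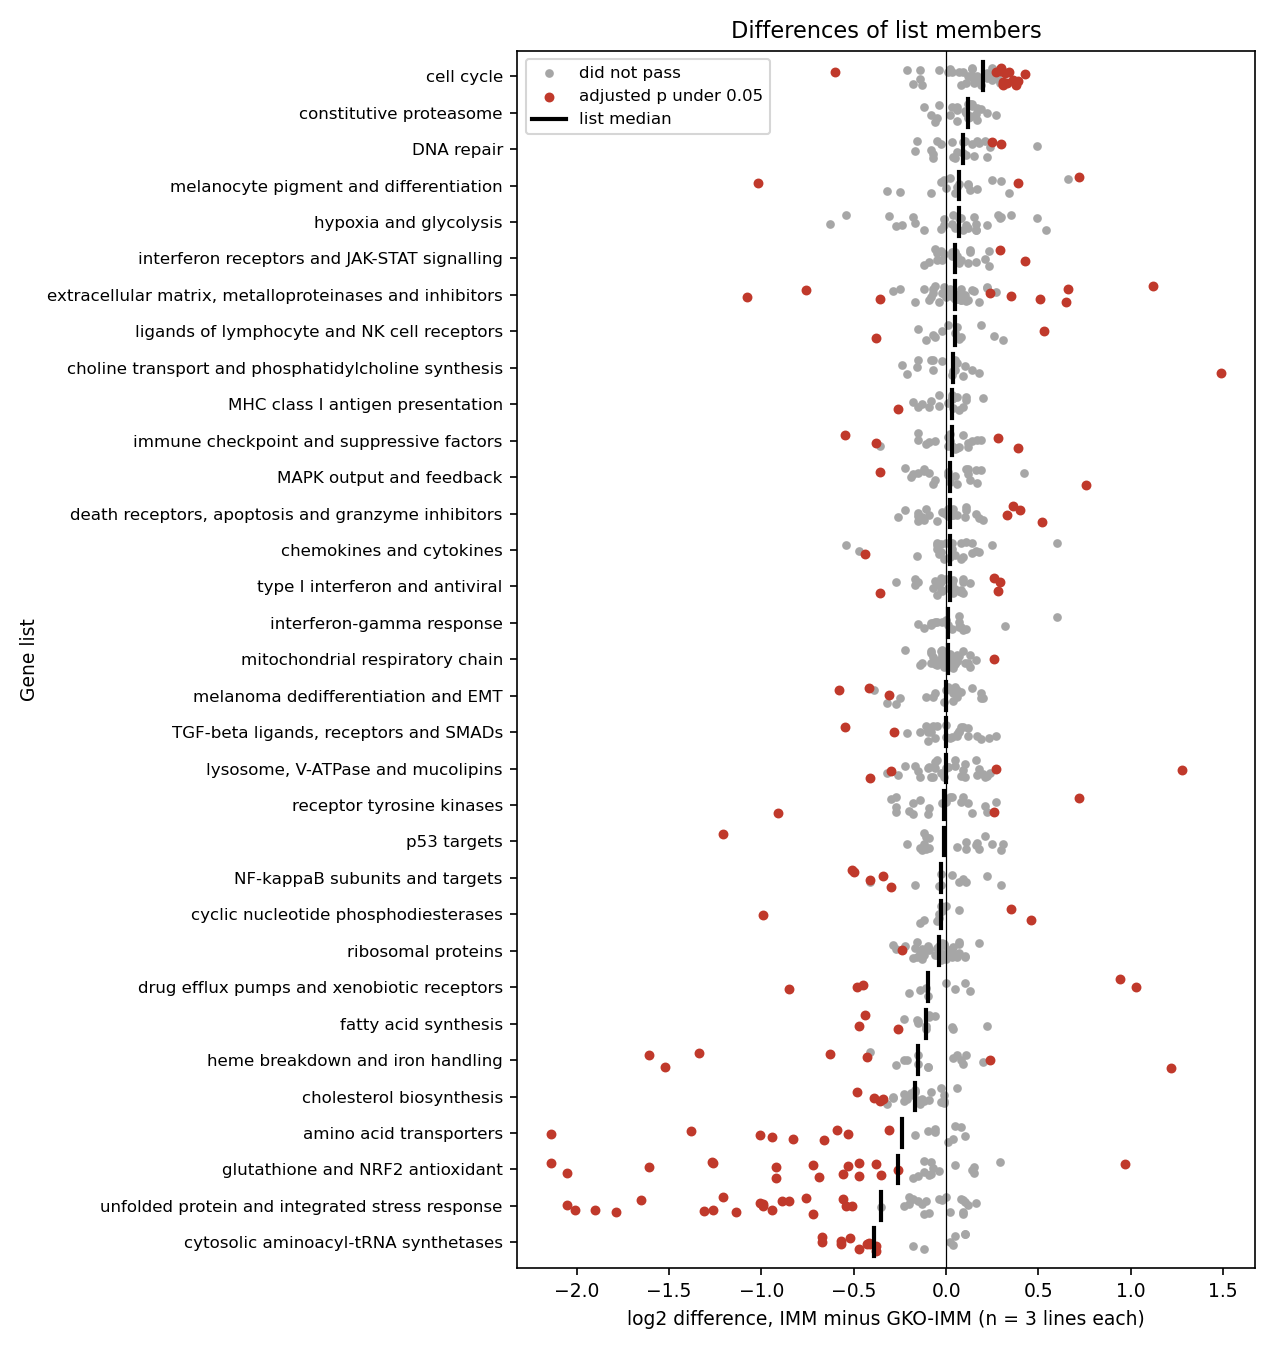
Difference between IMM and GKO-IMM lines on the log2 scale for each gene tested (points) of 33 gene lists (rows), with genes at an adjusted p under 0.05 in red and the list median as a bar. The red points of the stress, transporter, tRNA synthetase and antioxidant lists lie below 0 except that of Gsta4, and the IFN-γ response row holds no red point.

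Of 36 IFN-γ response genes on the list, 19 were bright enough to test, 13 were too dim and 4 were not measured by a row with 1 symbol. Among the 19, 0 passed in limma and 1 had an unadjusted p under 0.05, and their median difference was 0.01. Mean levels of the 19 ran from 4.76, near the filter at log2 4.739, to 9.6. The list's array median was -0.03 in NIMM 4. Ifngr1, the ligand-binding receptor chain, measured 8.03, 7.99 and 8.11 in IMM lines and 8.09, 7.94 and 7.92 in GKO-IMM lines, a difference of 0.06 (SE 0.07). The values of both groups overlapped. Ifngr2 differed by -0.02 (SE 0.06), Jak1 by -0.03 (SE 0.06), Jak2 by 0.21 (SE 0.07) and Irf1 by 0.07 (SE 0.14). Jak2 did not pass (adjusted p = 0.148, limma), and the small differences of Ifngr1, Ifngr2 and Irf1 changed sign under at least 1 alternative. Cxcl10, a T cell chemokine, reached 8.93 in IMM 2 but 7.24 and 7.89 in IMM 1 and 8, against 7.32 to 7.50 in GKO-IMM lines, and its difference of 0.60 had an SE of 0.32.

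Antigen presentation genes were called at a share near that of all genes. Of 20 genes tested of the MHC class I list 1 passed (5.0%, against 5.96% over all genes), Lnpep, an aminopeptidase that trims peptides in endosomes (-0.26, SE 0.06), and its call was lost when any line but IMM 2 was left out. B2m, the light chain, lay between 11.97 and 12.16 in IMM lines and between 12.01 and 12.06 in GKO-IMM lines. H2-K1, a heavy chain, differed by -0.15 (SE 0.16), Tap1, a peptide transporter chain, by 0.20 (SE 0.09), and the immunoproteasome subunits Psmb8 and Psmb9 by 0.11 and 0.04 (SE 0.06 each). Over the 6 arrays Psmb8 lay at 5.03 to 5.25 and Psmb9 at 4.86 to 4.99, near the filter at log2 4.739. Differences are compressed at such dim levels, so these 2 genes could show little. A p that misses the threshold does not show equal levels. In the antiviral list 13.3% of genes were called, against 5.96% over all genes. Of its 30 genes 3 were higher, Ifih1, Cgas and Cmpk2, by 0.26 to 0.29, and Rsad2, an antiviral enzyme, was lower by -0.36 (SE 0.07). Each of the 3 lost its call without any of several lines, and Rsad2 without GKO-IMM 3. For 3 of these 4 genes, but not for Lnpep, NIMM 4 was nearer GKO-IMM.

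Surface and secreted factors that act on lymphocytes gave small differences. Cd274, which encodes PD-L1, measured 7.57, 6.82 and 7.31 in IMM lines and 7.31, 7.11 and 7.02 in GKO-IMM lines, which overlap (0.09, SE 0.16). Lgals9, galectin 9, was higher at 10.65, 10.65 and 10.63 against 10.18, 10.23 and 10.36, a difference of 0.39 (SE 0.06, adjusted p = 0.00706, limma). Cd276, B7-H3, was higher by 0.28 (SE 0.06), a call lost without IMM 1, IMM 8, GKO-IMM 1 or GKO-IMM 2. Tgfb1, an immunosuppressive cytokine, measured 7.01, 6.59 and 6.87 against 7.23, 7.36 and 7.53, lower by -0.55 (SE 0.11), and Nectin2, a ligand of TIGIT and DNAM-1, was lower by -0.38 (SE 0.07). Both genes lie on chromosome 7, and both lost their calls without GKO-IMM 2 or 3, Nectin2 also without GKO-IMM 1. Of 25 genes tested in this list 2 were higher and 2 lower, against 5.96% called over all genes. NIMM 4 was nearer GKO-IMM for all 4.

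Among regulators of death and survival 4 of 30 genes were higher and 0 lower (13.3% called, against 5.96% over all genes). The higher ones included the survival factor Mcl1 (0.40, SE 0.07), the death activator Bcl2l11 and Apaf1 of the apoptosome. The members thus included genes that promote and genes that oppose cell death, and Mcl1 lost its call without IMM 8 or GKO-IMM 3, and Bcl2l11 and Apaf1 without 5 of the 6 lines each. For all 4 higher genes NIMM 4 was nearer GKO-IMM, and for 2 of them NIMM 1 and 3 were each nearer IMM. NF-kappaB subunits lay on the other side, with 5 of 16 list genes lower and 0 higher (31.2% called). Nfkb1 measured 8.37, 8.57 and 8.30 against 8.89, 8.89 and 8.94, a difference of -0.50 (SE 0.08, adjusted p = 0.00473, limma), and Nfkb2 differed by -0.51 (SE 0.09). NIMM 4 was nearer GKO-IMM for all 5, 0 of the 5 passed over 9 lines, and 2 of the 5, Relb and Nfkbib, lie on chromosome 7. Nfkb2 lost its call without GKO-IMM 3, Rel without 4 of the 6 lines, and Relb and Nfkbib without 5 each.

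Among 21 melanocyte genes tested 2 were higher and 1 lower (14.3% called, against 5.96% over all genes). Pmel, Mlana and Tyr, which serve pigment synthesis or the melanosome, differed by 0.06 (SE 0.06), -0.08 (SE 0.06) and 0.17 (SE 0.11) and did not pass. Kit, the receptor of stem cell factor, measured 9.24, 8.95 and 9.05 in IMM lines and 8.34, 8.29 and 8.42 in GKO-IMM lines, a difference of 0.72 (SE 0.08, adjusted p = 0.000839, limma). NIMM 1 and 3 were at 9.48 and 9.37 and NIMM 4 at 8.34, level with GKO-IMM. In the melanoma dedifferentiation list Snai2, a transcription factor of neural crest cells, was lower by -0.42 (SE 0.06). In the receptor tyrosine kinase list Ddr2, a collagen receptor kinase, was lower by -0.91 (SE 0.06). The lower melanocyte gene was Oca2, a melanosome transporter gene on chromosome 7. Oca2 measured 9.24 in IMM 1 but 8.03 and 8.13 in IMM 2 and 8, against 9.47 to 9.50. Its call (-1.02, SE 0.25) was lost without any line but IMM 1.

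In the matrix list 6 of 46 genes were higher and 3 lower (19.6% called, against 5.96% over all genes). NIMM 4 was nearer GKO-IMM for 7 of these 9, and NIMM 1 and 3 were each nearer IMM for 4. Both held for only 2 genes. The protease inhibitors went opposite ways, Timp1 at 0.65 (SE 0.09) and Timp3 at -0.76 (SE 0.13). Postn, periostin, was higher by 0.66 (SE 0.07), and Adam23, an adhesion protein without protease activity, measured 6.32, 6.79 and 6.33 against 7.64, 7.40 and 7.64, a difference of -1.08 (SE 0.12). Of these, Timp1, Postn and Adam23 also passed over 9 lines.

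Lipid genes were called on the lower side. Of 15 fatty acid synthesis genes tested 3 were lower and 0 higher, against 3.4% lower and 2.56% higher over all genes. Of 26 cholesterol synthesis genes tested 25 had a difference below 0 and 4 were lower (15.4%, against 3.4% lower over all genes), among them Lss (-0.48, SE 0.07), Sc5d (-0.39, SE 0.08) and Fdps (-0.36, SE 0.08), and Hmgcs1 did not (-0.12, SE 0.07). Calls of Sc5d and Fdps were lost without single lines, each GKO-IMM line included. For 1 of the 4 cholesterol calls and all 3 fatty acid calls NIMM 4 was nearer GKO-IMM. Hypoxia and glycolysis genes gave 0 calls of 30 in limma, with 4 at an unadjusted p under 0.05. Their median was 0.14, -0.31 and 0.22 in IMM 1, 2 and 8 and -0.16 to 0.01 in GKO-IMM, with NIMM 4 at -0.13, and without IMM 2, 10 of the 30 were higher and 0 lower. Stc1, a secreted glycoprotein singled out after its values were seen, measured 7.06, 5.81 and 7.51 in IMM lines and 5.64 to 6.11 in GKO-IMM lines. Txnip, a glucose-responsive thioredoxin inhibitor singled out in the same way, ran the other way within the group, at 5.66, 7.59 and 5.58 against 5.42 to 5.48.

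Of 150 microRNA genes tested 6 passed and of 66 snoRNA genes 2, against 5.96% of all genes. The mature sequence of the one with the smallest p, from RefSeq on GRCm38.p6, is shown to identify it, with the seed (bases 2 to 8) in capitals.
mmu-miR-5125 (chr17:23823339-23823358, plus strand): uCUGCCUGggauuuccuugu
Its gene, Mir5125, measured 7.21, 7.26 and 7.04 in IMM lines and 7.79, 7.74 and 7.71 in GKO-IMM lines, a difference of -0.57 (SE 0.07, adjusted p = 0.00145, limma). The array's probes for such a gene can also bind longer transcripts of the same locus, so the value is that of the locus. Of the others, Mir328 was higher by 0.42 and Mir1938, Mir1898, Mir467c and Mir692-1 were lower by -0.26 to -0.40, and all 5 lost their calls without at least 4 of the 6 lines.

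Lower genes were unevenly spread over chromosomes. Chromosome 7 held 125 lower genes among 1311 tested (9.53%) and 12 higher (0.915%), against 3.4% and 2.56% over all genes. It carries 8.02% of the genes tested and 22.5% of the lower ones. Chromosome 17, singled out after its values were seen, held 58 lower genes among 800 (7.25%) and 3 higher (0.375%). Among genes above the median level, 74.0% on chromosome 7 and 78.9% on chromosome 17 had a difference below 0, compared with 47.6% over all 8176 such genes, and their median differences were -0.114 and -0.12. Relative to all genes above the median level on the same array, those of chromosome 7 had medians of -0.076, -0.052 and -0.051 in IMM lines, 0.031, 0.077 and 0.079 in GKO-IMM lines and 0.026, 0.035 and 0.051 in NIMM 1, 3 and 4. All 3 NIMM lines thus stood within or just below the GKO-IMM range on chromosome 7, which differs from the pattern of the stress genes. On chromosome 17 the IMM lines were at -0.037, -0.04 and -0.09, GKO-IMM at 0.051, 0.055 and 0.063, and NIMM between them at -0.02, -0.015 and 0.015. In 20 Mb windows of chromosome 7, chosen after seeing the data, medians were below 0 as far as 120 Mb and were 0.015 and 0.02 beyond. In the fit over 9 lines 49 genes of chromosome 7 and 12 of chromosome 17 were lower. Outside these chromosomes 404 genes were higher and 373 lower.

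**Figure D4:**
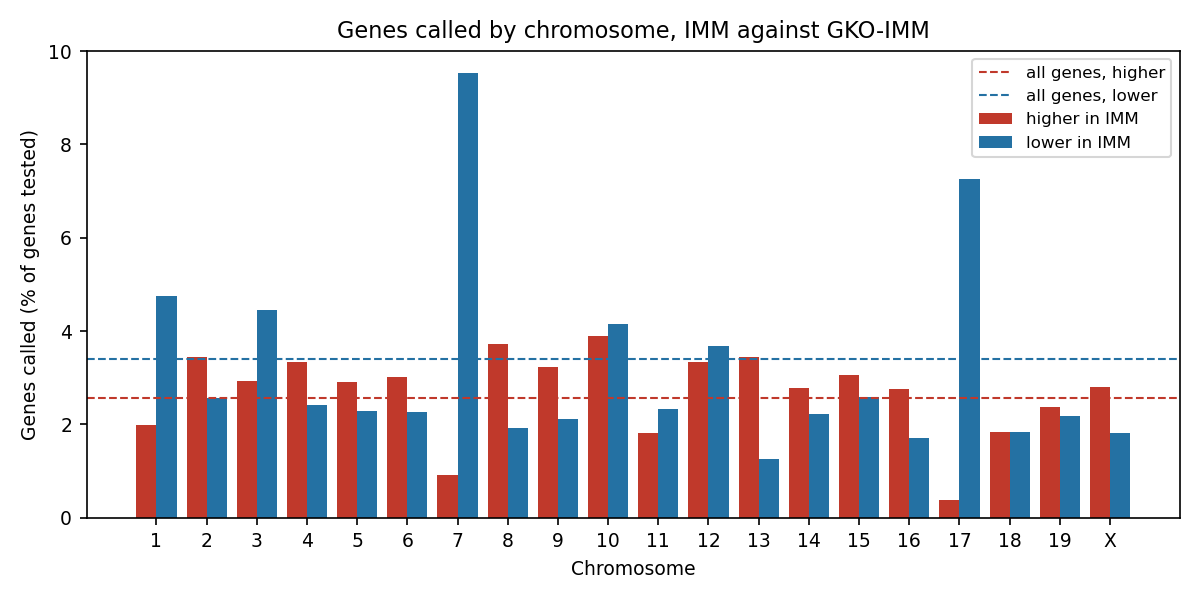
Share of the genes tested on each chromosome that were higher (red bars) or lower (blue bars) in IMM than in GKO-IMM lines at an adjusted p under 0.05, with dashed lines at the shares over all genes. The lower share reaches 9.53% on chromosome 7 and 7.25% on chromosome 17, where the higher share is 0.915% and 0.375%.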

How the data were processed

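Each of 10 lines had 1 Affymetrix array (MoGene-2_0-st). Per the labels' protocols, Trizol was used for total RNA, from which biotin-labelled cRNA was prepared. The deposited table holds a linear intensity column per array, called raw per the file headers. The deposited normalized columns hold log2 values, equal to the log2 intensity minus each transcript cluster's median over the arrays (largest difference 2.23e-06). How the authors corrected background and summarized probes is not given in the sources used here.

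Log2 intensities were used without further normalization, since array medians lay between 31.9 and 32.5. Of 33793 transcript clusters 24732 carried 1 gene symbol. Symbols were updated with a RefSeq table on GRCm38.p6 (20206 current, 2112 updated, 1075 unmatched), and the cluster with the highest mean over the 6 arrays stood for each of 23360 genes. Genes under percentile 30 of that mean (log2 4.739) were left out. IMM and GKO-IMM lines were fitted with limma 3.58.1 (lmFit and eBayes) in R 4.3.3, without covariates, with 4 residual and 6.159 prior degrees of freedom. All adjusted p-values are two-sided, from limma, over 16352 genes. With 200 genes changed in simulated data, 74.5% of changes of 0.5 and 97% of changes of 1 log2 unit were recovered, with 0 calls when none were changed.

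Named genes were the 15 furthest in each direction that passed without overlap (1 predicted gene was passed over), the 5 smallest p-values, where so many were tested, in each of 39 gene lists, up to 8 microRNA genes and 28 fixed genes. Further list members that passed are named in groups, and some genes that the rule names are left out of the text. Values had been seen when Txnip, Stc1, chromosome 17 and the windows were chosen. The comparison, gene lists and tests were chosen with earlier results of these data known. IMM and GKO-IMM share only the line numbers 1 and 2, and deviations of same-numbered lines correlated at 0.12 and -0.054, so the numbers were not taken as pairs. Alternatives were other filters, normalizations, offsets, transcript cluster rules, priors and weights, the 9-line fit, the number as a block, a minimum of 1 log2 unit and each line left out. The fit without NIMM 4 was added after seeing the data. Python 3.11.15 with pandas 2.3.3 and matplotlib 3.10.9 made the summaries and figures.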

Additional observations from a re-analysis of the deposited data

How the results depend on the processing

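Main counts were 419 higher and 556 lower genes. They became 161 and 283 with 15 subtracted before log2, 72 and 119 with all 9 lines in the fit, and 7 and 33 with a minimum of 1 log2 unit. With the line number as a replicate block they were 233 and 363, although the numbers are names and do not pair the lines. Leaving out 1 line gave 142 to 582 higher and 279 to 652 lower genes; the count moved by over 1.5 times without IMM 1 (270 higher), IMM 8 (213 and 339), GKO-IMM 1 (153 and 279), GKO-IMM 2 (142 and 312) or GKO-IMM 3 (153 and 279). With fewer lines the fit has fewer degrees of freedom. Other filters, normalizations, priors, weights and cluster rules stayed within 1.5 times. Centring array medians gave 323 and 608 genes, so that 34.7% of calls were higher in place of 43.0%. Of 110 named genes that passed, 65 kept their call without each single line. Among named genes, signs changed only for some that did not pass. Under the block these were Ifngr1 (-0.0054) and Cd274 (-0.0183), and with array weights Irf1 (-0.0151). With 1 line left out the difference ranged from -0.0343 to 0.0033 for Ifngr2, -0.1336 to 0.1978 for Irf1, -0.0269 to 0.0698 for B2m, -0.3265 to 0.0439 for H2-K1, -0.0002 to 0.0636 for Psmb9 and -0.0832 to 0.294 for Cd274. The stress list's median ranged from -0.52 to -0.24 and the hypoxia list's from -0.02 to 0.21. Dim genes near background have compressed differences.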

Other observations

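Calls in lists not described above are to be read against 5.96% of all genes tested. Of 25 interferon receptor and JAK-STAT genes 2 were higher in IMM lines, Ptpn6, the phosphatase SHP-1 (0.43, SE 0.09), and Stat5a (0.29, SE 0.07), and 0 were lower. NIMM 4 was nearer GKO-IMM for both, and NIMM 1 and 3 were each nearer IMM for 0 of the 2. Stat5a lost its call without any 1 of the 6 lines and Ptpn6 without 4 of them. Of 12 cyclic nucleotide phosphodiesterase genes Pde7b was lower (-0.99, SE 0.16) and Pde5a and Pde9a were higher (0.46, SE 0.09, and 0.35, SE 0.08). Pde7b measured 8.46, 7.65 and 8.16 in IMM lines, 9.05, 9.09 and 9.11 in GKO-IMM lines and 8.72, 8.81 and 8.82 in NIMM lines. Pde5a lost its call without GKO-IMM 1 or 2, and Pde9a without 4 of the lines.

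Among lysosome genes 2 of 35 were higher and 2 lower, the lower ones being Tfe3, a transcription factor for lysosomal genes (-0.41, SE 0.06), and Sqstm1, an autophagy receptor (-0.30, SE 0.08), whose call was lost without any line but IMM 2. Lower fatty acid synthesis genes included Me1, malic enzyme (-0.47, SE 0.08), and Mid1ip1, an activator of acetyl-CoA carboxylase (-0.44, SE 0.06). DNA repair gave 2 higher of 25, receptor tyrosine kinases 2 higher and 1 lower of 24, melanoma dedifferentiation genes 3 lower of 23, and TGF-β genes 2 lower of 29. MAPK output genes gave 1 higher and 1 lower of 24, and ligands of lymphocyte and NK receptors 1 and 1 of 15. There was 1 lower gene in each of the lists of 26 chemokines and cytokines, 20 p53 targets and 42 ribosomal proteins, and 1 higher among 40 respiratory chain genes. Of 25 constitutive proteasome genes 0 passed in limma and 6 had an unadjusted p under 0.05, with 20 of the 25 differences above 0.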
